A study of Homo sapiens with 6 samples.

Results

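The Hippo pathway and its TEAD transcription factors were examined in Huh7 hepatocellular carcinoma cells before and after the acquisition of lenvatinib resistance. The members were 10 genes, taken as the rows of the deposited expression table that carried their symbols, out of 26184 rows in all. They were the 4 TEAD factors TEAD1, TEAD2, TEAD3 and TEAD4, the coactivators YAP1 and WWTR1 (the gene of TAZ), and the target genes CTGF, CYR61, AMOTL2 and LATS2. The members were selected on their counts in Huh7 P and Huh7 LR, whose difference was already known, so the values of the members in that comparison are given as a description and without a test.

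Huh7 P is the parental line, and Huh7 LR is the lenvatinib-resistant line derived from it by culture in lenvatinib, an inhibitor of several receptor tyrosine kinases, raised from 1 to 20 μM over 10 months. RNA sequencing was performed on 3 samples of each line. Huh7 LR is 1 derived line, so the comparison is between these lines and not between many resistant and sensitive clones. Resistant cells were kept in 20 μM lenvatinib, and whether the drug was present when the RNA samples were taken is not stated. The samples of each line are described as independent, with RNA taken from culture plates, and how the cultures were kept apart is not stated, so p-values measure only the spread between these samples, which may be technical.

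In the Hippo pathway, the kinases MST1 and MST2 (STK4 and STK3) act with the scaffold SAV1 to activate LATS1 and LATS2, which act with MOB1. The LATS kinases phosphorylate YAP and TAZ and hold them outside the nucleus. When phosphorylation is low, YAP and TAZ enter the nucleus, bind a TEAD factor on DNA and switch on genes such as CTGF and CYR61. The pathway limits organ size in the liver, and the activity of YAP is set mainly at the protein level, which RNA sequencing does not read.

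The libraries held between 62738937 and 71427573 counted reads each. Expression is given as CPM (counts relative to the library total, scaled by edgeR's TMM factors) for comparison between libraries, and as the FPKM deposited by the authors for comparison between genes of different length. At this depth 3 reads corresponded to 0.0418 to 0.0486 CPM. Rank correlations were 0.9945 to 0.9951 within Huh7 P, 0.9907 to 0.9941 within Huh7 LR and 0.974 to 0.976 between the lines. The labelled cell type was checked first. The summed CPM of 8 hepatocyte markers, including ALB and AFP, was 35924 to 45147 in Huh7 P and 46263 to 48133 in Huh7 LR. By the test described below, 5 of the 8 rose, among them APOA2, ALB and TTR (log2 fold changes 1.49, 0.74 and 0.68), and AFP did not pass (-0.23). Of all features tested, 23.3% rose.

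TEAD factors bind the letters GGAATG, which are the core of their motif, and the promoter of CTGF is shown because it carried the most matches among the members. RefSeq promoters (GRCh38.p14, 250 bases before to 50 bases after the annotated start) were matched for 7 of the 10 members. The first sequence is the 250 bases before the start of CTGF (CCN2 in RefSeq, minus strand), and the other is the same stretch before the inner annotated start of TEAD2 (minus strand), the member that differed most between the lines. Both run 5′ to 3′ on the strand of the gene, and capitals mark GGAATG.
CTGF chr6:131951373-131951622: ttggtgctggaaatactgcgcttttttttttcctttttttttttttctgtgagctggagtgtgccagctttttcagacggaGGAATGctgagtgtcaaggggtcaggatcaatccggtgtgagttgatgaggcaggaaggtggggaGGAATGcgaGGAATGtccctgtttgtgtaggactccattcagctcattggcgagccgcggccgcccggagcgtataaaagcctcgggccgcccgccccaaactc
TEAD2 chr19:49361518-49361767: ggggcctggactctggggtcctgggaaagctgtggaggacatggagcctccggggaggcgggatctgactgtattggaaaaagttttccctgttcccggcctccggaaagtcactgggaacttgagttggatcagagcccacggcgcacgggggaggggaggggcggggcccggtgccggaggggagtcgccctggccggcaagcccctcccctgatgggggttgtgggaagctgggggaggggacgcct
The 3 matches in CTGF began at -169, -104 and -95 from the start. Neither of the 2 annotated TEAD2 promoters held GGAATG. For every other match in the members and in the further target genes described below, the 30 bases around it are shown, with GGAATG or its reverse complement CATTCC in capitals.
YAP1 chr11:102110273-102110302: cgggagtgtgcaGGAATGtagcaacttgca
AMOTL2 chr3:134374499-134374528: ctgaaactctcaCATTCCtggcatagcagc
LATS2 chr13:21061560-21061589: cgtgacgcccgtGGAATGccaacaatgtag
PTPN14 chr1:214551785-214551814: cctcccgggccgCATTCCtccccgcccccg
NUAK2 chr1:205321925-205321954: tcccctagtcccCATTCCtggtgggcgggt
NUAK2 chr1:205321746-205321775: ttataacaacttGGAATGctgtgctttact
ANKRD1 chr10:90921290-90921319: atcaccaccaaaGGAATGgccctctcacat
ANKRD1 chr10:90921198-90921227: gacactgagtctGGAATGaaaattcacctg
TGFB2 chr1:218345139-218345168: tgtcagggcgcaCATTCCacctccttcctc
AXL chr19:41226531-41226560: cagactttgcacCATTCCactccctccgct
FOXF2 chr6:1389368-1389397: gaggccgcgagaGGAATGaagagcgaggag
YAP1, TGFB2, AXL and FOXF2 lie on the plus strand and the others on the minus strand. Of the 10 promoters of the matched members, 4 (40%) held GGAATG on either strand, against 14% of all 35116 promoters of this length. Among 14 promoters of other YAP/TAZ target genes, 6 (42.9%) held it. The AP-1 letters TGANTCA, which can overlap GGAATG at their ends, were found in 7.71% of all promoters, in 0 of the 10 member promoters and in 2 (14.3%) of the target promoters, those of F3 and ANKRD1. A match is a description of letters and does not show that a factor was bound.

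TEAD2 RNA was almost lost from the resistant line, while the other 3 TEAD genes had log2 fold changes between -0.31 and 0.27. TEAD2 (chr19:49340595-49362457 on GRCh38) was measured at 15.6, 13.3 and 14.8 CPM in Huh7 P and at 0.828, 0.742 and 0.484 CPM in Huh7 LR. These values rest on 1120, 822 and 967 reads in the parental libraries and 54, 52 and 33 reads in the resistant libraries. All resistant libraries lay far below all parental libraries. The parental mean was 14.6 ± 1.16 CPM and the resistant mean 0.685 ± 0.179 CPM (SD, n = 3 here and below), 21.3-fold higher in the parental line, with a log2 fold change of -4.41 (SE 0.18). Among the 17531 genes and loci that passed the filter on low counts, TEAD2 ranked 8 from the lowest log2 fold change, and 6 among the 14053 annotated genes. In RNA from bulk cultures, fewer cells with a transcript and less transcript per cell cannot be told apart.

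TEAD1 (chr11:12674591-12944483), a broadly expressed TEAD gene, was measured at 72.0, 68.1 and 64.0 CPM in Huh7 P and 85.2, 70.5 and 81.8 CPM in Huh7 LR. The lowest resistant library lay within the range of the parental libraries, and the log2 fold change was 0.22 (SE 0.08). TEAD1 was also the member whose FPKM tracked its counts least closely: the number of reads per unit of FPKM differed 1.33-fold between its highest and lowest library, against a median of 1.03-fold over 10673 genes.

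TEAD3 (chr6:35473597-35497076) was measured at 19.5, 19.2 and 19.1 CPM in Huh7 P and 22.5, 23.5 and 23.7 CPM in Huh7 LR. The lines did not overlap, with a log2 fold change of 0.27 (SE 0.08). TEAD4 (chr12:2959330-3040673) was measured at 25.2, 23.2 and 23.0 CPM in Huh7 P and 16.9, 21.6 and 19.0 CPM in Huh7 LR. Here every resistant library lay below every parental one, and the log2 fold change was -0.31 (SE 0.10). Both differences were small beside that of TEAD2.

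Per length, the 4 TEAD genes summed to 38.1, 33.0 and 32.4 FPKM in Huh7 P and to 29.2, 29.8 and 33.0 FPKM in Huh7 LR, so the sums overlapped. The mean sum was 34.5 ± 3.15 FPKM in the parental line and 30.7 ± 2.04 FPKM in the resistant line. Without TEAD2, the sum of the other 3 genes was 28.7 ± 2.57 and 30.4 ± 2.11 FPKM. TEAD2 made up 16.9% ± 0.748 of the summed TEAD level in Huh7 P and 0.905% ± 0.295 in Huh7 LR. TEAD4 held the largest share in the parental line (38.7%), followed by TEAD1 (26.9%) and TEAD3 (17.5%). In the resistant line the shares of TEAD1 (39.0% ± 4.64) and TEAD4 (36.2% ± 3.87) overlapped, and TEAD3 accounted for 23.9%. On CPM per kilobase of exon in place of FPKM, the summed level did not overlap between the lines, at 28.3 ± 1.25 in Huh7 P and 24.0 ± 0.533 in Huh7 LR.

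**Figure D1:**
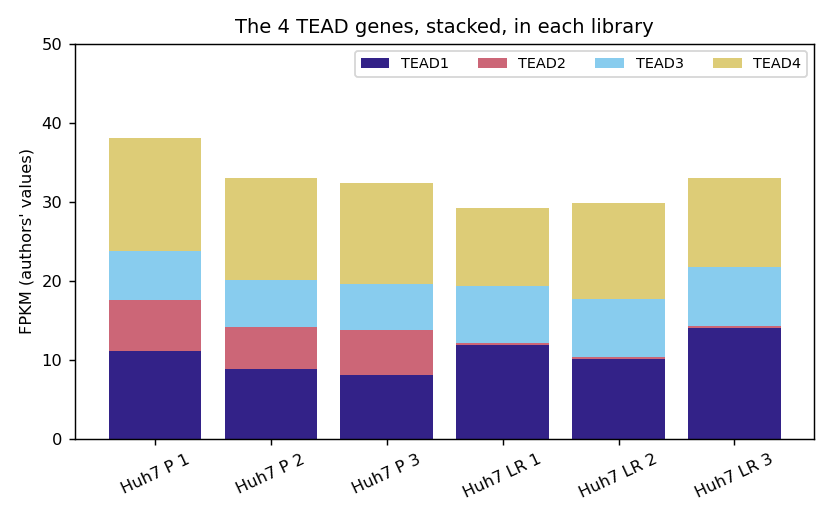
FPKM of TEAD1, TEAD2, TEAD3 and TEAD4 stacked for each of the 6 libraries (vertical axis, the authors' FPKM, from 0). The TEAD2 segment shrinks from 5.30 to 6.54 FPKM in the Huh7 P libraries to 0.197 to 0.346 FPKM in the Huh7 LR libraries, while the height of the whole bar overlaps between the lines.

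The coactivators were both more abundant in the resistant line. YAP1 (chr11:102110461-102233423) was measured at 100.4, 102 and 99.1 CPM in Huh7 P and 133, 118 and 138 CPM in Huh7 LR, with a log2 fold change of 0.37 (SE 0.07). WWTR1 (chr3:149517235-149736714) was measured at 47.2, 45.1 and 42.2 CPM in Huh7 P and 62.6, 52.4 and 61.0 CPM in Huh7 LR, with a log2 fold change of 0.39 (SE 0.08). For both genes the lines did not overlap and resistant library 2 was the lowest of the 3 resistant ones. Per length, YAP1 exceeded WWTR1 in both lines, at 18.3 against 9.91 FPKM in Huh7 P and 24.9 against 13.4 FPKM in Huh7 LR.

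The target genes among the members were all higher in the resistant line. CTGF (chr6:131948176-131951373), a secreted matricellular protein and a widely used readout of YAP and TAZ, was measured at 79.6, 78.2 and 77.8 CPM in Huh7 P and 129.7, 152 and 122 CPM in Huh7 LR. The parental libraries were nearly equal and all resistant libraries lay above them, with means of 78.5 ± 0.969 and 135 ± 15.6 CPM and a log2 fold change of 0.78 (SE 0.09). CYR61 (chr1:85580761-85583962), its relative in the same protein family, was measured at 6.47, 7.13 and 7.72 CPM in Huh7 P and 13.8, 24.8 and 19.0 CPM in Huh7 LR. The resistant libraries did not overlap with the parental ones but were spread widely, at 19.2 ± 5.50 CPM against 7.11 ± 0.629 CPM, and the log2 fold change was 1.43 (SE 0.18).

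AMOTL2 and LATS2 are both targets and inhibitors of YAP. AMOTL2 (chr3:134355874-134375479), an angiomotin family protein that binds YAP and keeps it in the cytoplasm, was measured at 57.6, 56.8 and 57.2 CPM in Huh7 P and 100.2, 138 and 112 CPM in Huh7 LR. All resistant libraries lay above the parental libraries, with means of 57.2 ± 0.446 and 117 ± 19.5 CPM and a log2 fold change of 1.03 (SE 0.10). LATS2 (chr13:20973032-21061547), the kinase that phosphorylates YAP and TAZ, was measured at 43.1, 39.3 and 35.4 CPM in Huh7 P and 52.0, 53.2 and 55.7 CPM in Huh7 LR. The lines again did not overlap, and the log2 fold change was 0.45 (SE 0.08).

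In all, 7 of the 10 members had every resistant library above every parental one, 2 (TEAD2 and TEAD4) had every resistant library below, and TEAD1 overlapped. Over the 17531 genes and loci tested the same was true of 28.2% (above) and 27.7% (below). The median log2 fold change was 0.38 over the 10 members and 0.0046 over all features tested. A log2 fold change above 1 was seen in CYR61 and AMOTL2 and in 8.9% of all features, and one below -1 in TEAD2 and in 3.56% of all features. Since the members were chosen with this comparison in view, these shares describe them and carry no test.

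**Figure D2:**
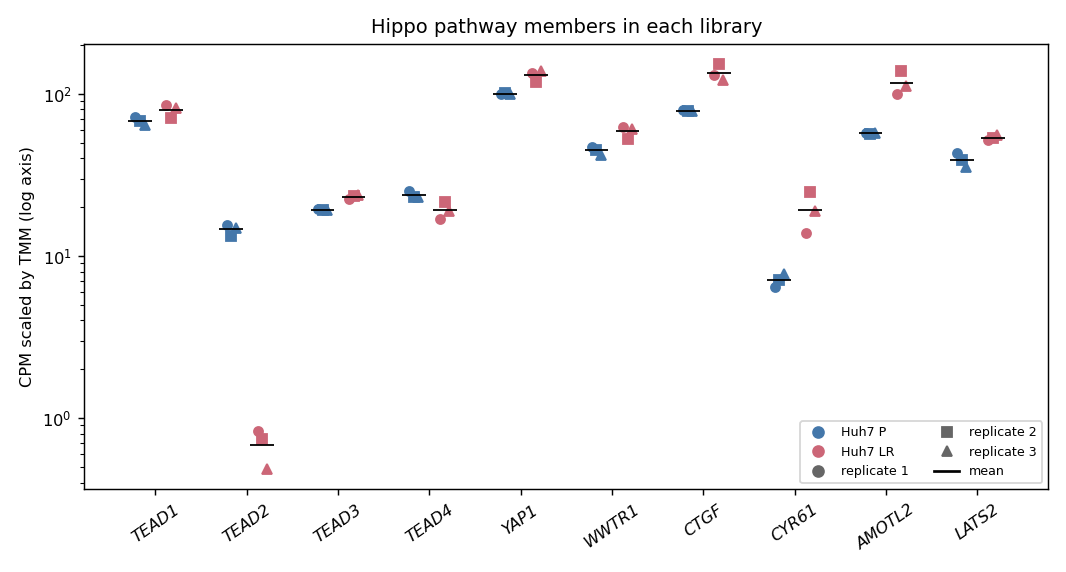
CPM scaled by TMM (log axis) of the 10 members in the 3 Huh7 P libraries (blue) and the 3 Huh7 LR libraries (red), with the replicate number as the marker shape and the mean of each line as a bar. TEAD2 drops from 13.3 to 15.6 CPM to under 1 CPM in all 3 Huh7 LR libraries, and CYR61 shows the widest spread among the Huh7 LR libraries above the parental range, from 13.8 to 24.8 CPM.

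The order of the members by FPKM also differed between the lines. In Huh7 P it ran CTGF (30.8 FPKM), YAP1, TEAD4, AMOTL2, WWTR1, TEAD1, LATS2, TEAD3, TEAD2 and CYR61 (2.85 FPKM). The ranges of WWTR1 and TEAD1, of LATS2 and TEAD3, and of TEAD3 and TEAD2 overlapped in that line, so these neighbours could not be ordered. In Huh7 LR the order ran CTGF (53.9 FPKM), AMOTL2, YAP1, WWTR1, TEAD1, TEAD4, LATS2, CYR61, TEAD3 and TEAD2 (0.274 FPKM). AMOTL2 overlapped with YAP1 there, WWTR1 with TEAD1, TEAD1 with TEAD4, LATS2 with CYR61, and CYR61 with TEAD3. CYR61 was thus the lowest member in the parental line, and TEAD2 in the resistant line.

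The resistant libraries differed among themselves at the members. Resistant library 2 gave the highest of the 3 resistant values for CTGF, CYR61, AMOTL2 and TEAD4 (4 of 10 members, 40%) and the lowest for TEAD1, YAP1 and WWTR1 (3 of 10, 30%), near the shares over all features tested (38% and 38.3%). The fourth member target, LATS2, was highest in library 3. Without resistant library 2, the log2 fold change of CYR61 was 1.21, and without resistant library 1 it was 1.62. Across 14053 annotated genes, which are not independent replicates, the deviation of a library from the mean of its line correlated with log2 exon length at r = -0.15 in resistant library 2, 0.07 in library 1 and 0.11 in library 3. The part of this difference in the values of the members was not tested.

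CTGF and CYR61 are also expressed by fibroblasts and stellate cells. The summed level of 8 fibroblast and stellate markers was 2.27 to 2.43 CPM in Huh7 P and 5.12 to 8.22 CPM in Huh7 LR, where COL1A1 and PDGFRB rose (log2 fold changes 1.84 and 0.84, edgeR adjusted p = 9.12e-05 and 0.00953). ACTA2 did not pass (log2 fold change 0.22, edgeR adjusted p = 0.769), and COL1A2 (0, 11 and 5 reads in Huh7 P, 0, 2 and 1 in Huh7 LR) and COL3A1 (0, 5 and 0 reads, against 17, 0 and 14) were too low to be tested. The markers DCN and THY1 had 0 reads in every library, and LUM had 2 reads in 1 parental library and 0 in the others. Summed endothelial markers were 38.8 to 47.5 CPM in Huh7 P and 65.0 to 71.2 CPM in Huh7 LR, mostly PECAM1. Both tested markers of that list rose, PECAM1 by 0.64 on the log2 scale (edgeR adjusted p = 1.35e-04) and VWF from 0, 0 and 8 reads to 19, 26 and 21 reads (log2 fold change 2.95, edgeR adjusted p = 0.0179, but 0.0508 to 0.0614 without Huh7 P replicate 1 or 2 or Huh7 LR replicate 2 or 3), while CDH5, KDR, TEK and ERG had 0 reads throughout. The part of other cell types in the values of CTGF and CYR61 was not tested beyond these markers. Summed leukocyte markers were 129.6 to 139.8 CPM and 56.0 to 63.0 CPM, almost wholly CD68 and LYZ, both lower in Huh7 LR (log2 fold changes -0.55 and -2.79, edgeR adjusted p = 2.08e-04 and 4.00e-08). The third tested leukocyte marker, CD14, had a log2 fold change of 0.53 and did not pass (edgeR adjusted p = 0.0708), and PTPRC and CD3E had at most 15 reads in any library, with TYROBP and HLA-DRA at 0 reads.

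The remaining pathway genes were compared between the lines by the quasi-likelihood test of edgeR, with p-values adjusted by Benjamini-Hochberg over all features, and were called at an adjusted p under 0.05. By this rule 23.3% of all features tested were higher and 22.4% lower in Huh7 LR, 45.7% together. Of 55 other Hippo pathway genes, 51 were tested, of which 11 rose, 12 fell and 28 did not pass. The number that fell was 7 without Huh7 P replicate 1 and 5 without Huh7 P replicate 2. Their median log2 fold change was -0.03. These shares were close to those of all features.

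In the kinase core of 8 genes, 2 rose, 2 fell and 4 did not pass. LATS1, the paralog of LATS2, was measured at 69.6, 67.3 and 64.5 CPM in Huh7 P and 51.3, 45.2 and 51.7 CPM in Huh7 LR. It fell in all resistant libraries, with a log2 fold change of -0.44 (SE 0.08, edgeR adjusted p = 6.91e-04), the direction opposite to that of LATS2. MOB1A, the adaptor of the LATS kinases, fell by 0.24 on the log2 scale (edgeR adjusted p = 0.0225), a call lost without any 1 of the 3 Huh7 P replicates (0.0666 to 0.0716). The scaffold SAV1 rose by 0.43 (edgeR adjusted p = 0.0204), and it shares 14.9% of its exon bases with ATL1 on the opposite strand. Its call was lost without Huh7 P replicate 2, Huh7 P replicate 3 or Huh7 LR replicate 3 (edgeR adjusted p between 0.0529 and 0.0859). STK38, a kinase related to LATS, rose by 0.27 (edgeR adjusted p = 0.00753). STK3, STK4, MOB1B and STK38L did not pass, with log2 fold changes of -0.06, -0.09, -0.20 and -0.02.

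Upstream of the core, 37 of 38 regulators were tested, of which 9 rose, 9 fell and 19 did not pass. FAT4, an atypical cadherin, was measured at 5.56, 5.56 and 4.91 CPM in Huh7 P and 13.6, 12.4 and 14.2 CPM in Huh7 LR and rose with a log2 fold change of 1.33 (SE 0.11, edgeR adjusted p = 6.12e-06). Its ligand DCHS1 went the other way, from 13.9, 12.8 and 12.9 CPM to 8.73, 4.15 and 5.20 CPM, with a log2 fold change of -1.13 (SE 0.22, edgeR adjusted p = 0.00157). Neither gene overlapped between the lines.

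WWC2, a relative of the LATS activator KIBRA, rose with a log2 fold change of 1.05 (edgeR adjusted p = 8.66e-06), though it shares 25.9% of its exon bases with CLDN22 on the opposite strand. The angiomotin AMOTL1 rose by 0.61 (edgeR adjusted p = 1.25e-04) and the phosphatase PTPN14, which binds YAP, by 0.54 (edgeR adjusted p = 0.00186). The LIM proteins AJUBA and WTIP, which bind and restrain the LATS kinases, rose by 0.91 and 0.96 (edgeR adjusted p = 6.61e-06 and 0.0104), AJUBA without and WTIP with overlap between the lines. The largest log2 fold change of the list, 3.49 for WWC3 (edgeR adjusted p = 0.00711), belonged to a gene under 0.5 CPM in every library.

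Among the falls were MAP4K2, a kinase that can act in place of MST (log2 fold change -0.61, edgeR adjusted p = 3.94e-04), and SLMAP, a subunit of the phosphatase complex that acts on MST (-0.39, edgeR adjusted p = 9.83e-04). NF2, the tumour suppressor merlin, was measured at 84.3, 70.8 and 60.6 CPM in Huh7 P and 75.6, 72.8 and 70.9 CPM in Huh7 LR and did not pass (edgeR adjusted p = 0.872). The angiomotin AMOT had 7, 0 and 2 reads in the parental libraries, against 7, 25 and 19 reads in the resistant ones, and was too low to be tested.

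Among 9 other TEAD cofactors, 6 were tested, of which 1 fell and 5 did not pass. The corepressor CTBP2 fell with a log2 fold change of -0.52 (edgeR adjusted p = 9.64e-05) and shares 31.2% of its exon bases with ZRANB1 on the opposite strand. VGLL4, which competes with YAP for TEAD, was measured at 43.7, 44.0 and 40.7 CPM in Huh7 P and 37.1, 44.0 and 41.9 CPM in Huh7 LR and did not pass (log2 fold change -0.06, edgeR adjusted p = 0.579). VGLL1 had 0 reads in every library, and VGLL2 and VGLL3 had at most 10. Thus VGLL4 was the only member of its family detected at more than a trace in these cells.

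**Figure D3:**
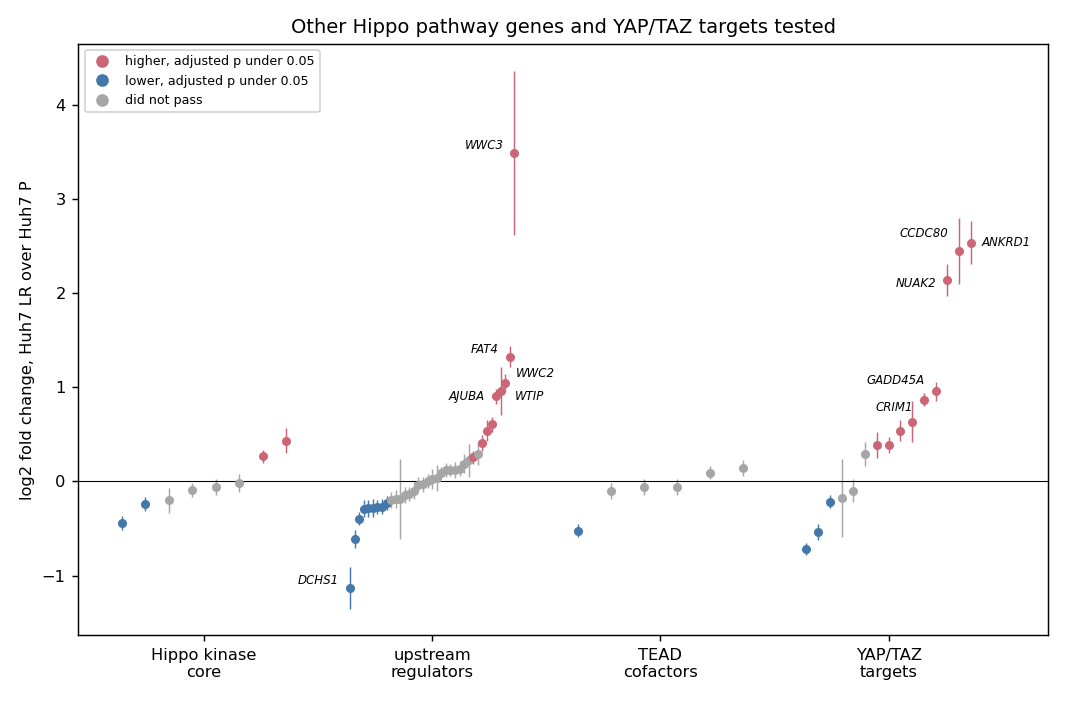
Log2 fold change of Huh7 LR over Huh7 P with its SE (bars) for each tested gene of the 3 other Hippo lists and of the YAP/TAZ target list, ordered within each list. Kinase core, upstream regulators and TEAD cofactors lie on both sides of 0, and 9 of the 15 target genes lie above 0 with an adjusted p under 0.05 in edgeR. The same was true of 23.3% of all features tested.

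Outside the members, 15 of 18 further YAP/TAZ target genes were tested, of which 9 rose, 3 fell and 3 did not pass. PTPN14, 1 of the rises, is also among the upstream regulators and is counted in both lists. Over all features tested, 23.3% rose and 22.4% fell. The median log2 fold change of the 15 tested targets was 0.39, against 0.0046 for all features. ANKRD1, a nuclear ankyrin repeat protein whose promoter held 2 of the sequences shown above, was measured at 0.725, 0.535 and 0.474 CPM in Huh7 P and 2.82, 4.05 and 3.24 CPM in Huh7 LR. It rose in every resistant library, with a log2 fold change of 2.54 (SE 0.23, edgeR adjusted p = 1.02e-05). NUAK2, a kinase of the AMPK family, was measured at 3.66, 2.72 and 2.42 CPM in Huh7 P and 11.2, 14.8 and 12.9 CPM in Huh7 LR. It too rose without overlap, with a log2 fold change of 2.14 (SE 0.17, edgeR adjusted p = 4.09e-06).

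CCDC80, a secreted matrix protein, rose from a low level of 0.270 ± 0.115 to 1.47 ± 0.357 CPM (log2 fold change 2.45, edgeR adjusted p = 2.22e-04). GADD45A, a stress-response gene, and CRIM1, a transmembrane protein that binds BMPs, rose by 0.96 and 0.87 on the log2 scale (edgeR adjusted p = 3.35e-05 and 4.44e-06). The other rises, those of TGFB2, PTPN14, ARHGEF17 and IGFBP3, ranged from 0.38 to 0.64, with edgeR adjusted p between 0.00186 and 0.0382. The number of rising targets was 7 in place of 9 without Huh7 P replicate 1 or Huh7 P replicate 2, where IGFBP3 and TGFB2 lost their calls, and in both FPKM fits, where CCDC80 and TGFB2 were too low to be tested. IGFBP3 did not pass without Huh7 LR replicate 2 or 3 either, nor TGFB2 without Huh7 P replicate 3 or Huh7 LR replicate 2 (edgeR adjusted p between 0.0600 and 0.134 over all these losses). DOCK5, which activates Rac, fell by 0.72 on the log2 scale (edgeR adjusted p = 9.72e-06), from 98.3 ± 3.30 to 59.7 ± 1.84 CPM. The membrane protein MYOF fell by 0.54 (edgeR adjusted p = 4.00e-04), from 79.2 ± 1.58 to 54.5 ± 6.33 CPM, and ASAP1 fell by 0.22 (edgeR adjusted p = 0.0219). The call of ASAP1 was lost without Huh7 P replicate 1, Huh7 P replicate 2 or Huh7 LR replicate 3 (edgeR adjusted p between 0.0677 and 0.0758). AXL, a receptor tyrosine kinase often used as a YAP target, stayed between 0.184 and 0.371 CPM in all libraries and did not pass (edgeR adjusted p = 0.758), nor did F3 or NT5E.

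Among the 9 rising targets, resistant library 2 was the highest resistant library for 7 (77.8%) and resistant library 1 the lowest for 7 (77.8%). Over all features tested, library 2 was the highest for 38% and library 1 the lowest for 38.6%. The same 2 libraries bounded CYR61 and AMOTL2. No test was made of this pattern, which was noticed in the data.

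**Figure D4:**
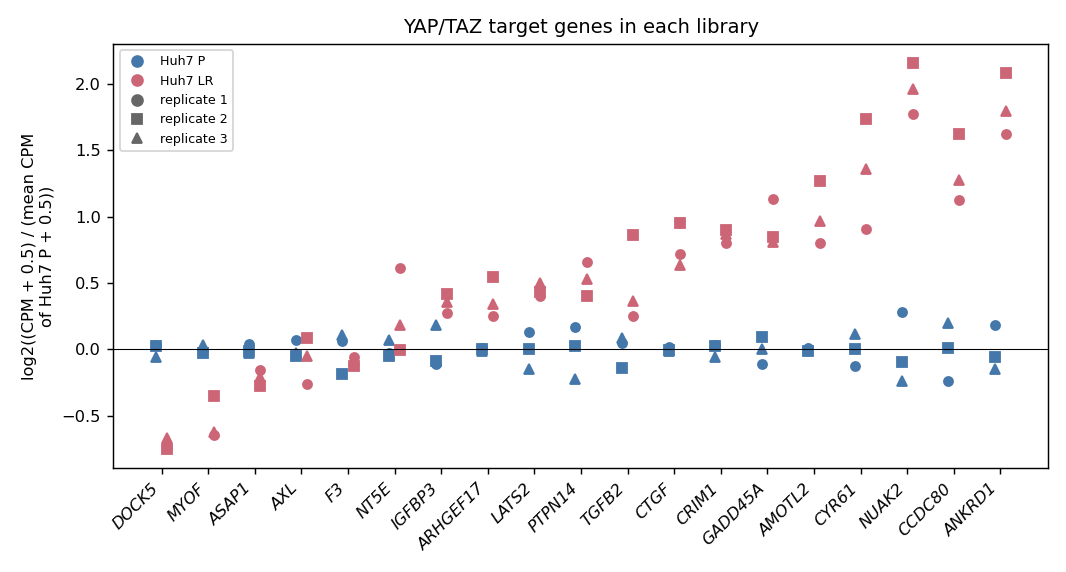
Log2 ratio of each library's CPM + 0.5 to the Huh7 P mean + 0.5 for the 15 tested YAP/TAZ target genes and the members CTGF, CYR61, AMOTL2 and LATS2 (Huh7 P blue, Huh7 LR red, marker shape by replicate), ordered by log2 fold change. ANKRD1 and NUAK2 lie highest in each Huh7 LR library, DOCK5, MYOF and ASAP1 lie below the parental libraries in all 3, and the square of Huh7 LR replicate 2 is the top red marker of most rising genes.

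The genes beside TEAD2 were examined because its RNA differed most among the members. Of 56 annotated genes within 500 kb of TEAD2, 35 were tested, of which 3 rose, 9 fell and 23 did not pass. By the same rule 23.3% of all features tested rose and 22.4% fell. The median log2 fold change of the 35 tested neighbours was -0.05. Only CD37 and SLC6A16, the 2 tested genes nearest to TEAD2 on its lower-coordinate side, passed an adjusted p under 0.001 with more than a 2-fold fall, a rule that 1.78% of all features passed (4.43% passed it with a rise).

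SLC6A16 (chr19:49289638-49325225), an orphan member of a transporter family, ends 15.4 kb from TEAD2 and had 178, 126 and 170 reads in Huh7 P and 3, 12 and 4 reads in Huh7 LR. It fell with a log2 fold change of -4.65 (SE 0.38, edgeR adjusted p = 5.04e-06). CD37 (chr19:49335171-49343335), a tetraspanin known from lymphocytes, had 129, 71 and 72 reads in Huh7 P and 11, 5 and 12 reads in Huh7 LR and fell with a log2 fold change of -3.27 (SE 0.39, edgeR adjusted p = 5.99e-05). CD37 lies on the plus strand and overlaps TEAD2, sharing 319 of the 2980 exon bases of TEAD2 (10.7%). Whether the counting used strand is not given in the sources used here, so reads of the shared bases cannot be assigned to 1 of both genes, and the fall of CD37 is uncertain.

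DKKL1 (chr19:49361783-49375116), whose body overlaps the higher-coordinate end of TEAD2, had 7, 2 and 11 reads in Huh7 P and 0 in each Huh7 LR library. It was too low to be tested. Of the other tested genes, DHDH (log2 fold change 1.69) and CPT1C (-0.91) had the largest differences, but both stayed under 1 CPM and did not pass. On the higher-coordinate side the nearest gene that could be tested was PIH1D1 at 83.8 kb. It fell by 0.23 on the log2 scale (edgeR adjusted p = 0.0192, but 0.0635 to 0.0849 without Huh7 P replicate 2, Huh7 P replicate 3 or Huh7 LR replicate 3). ALDH16A1 at 90.7 kb fell by 0.69 (edgeR adjusted p = 7.18e-05). TRPM4, at 128.8 kb on the side of SLC6A16, fell by 0.56 (edgeR adjusted p = 0.00479). The 3 genes that rose, PPP1R15A, FCGRT and PTOV1, were 144.4 kb or more away. Around the other 9 members, the median log2 fold change of the genes within 500 kb ranged from -0.30 (WWTR1) to 0.19 (CTGF), beside -0.05 around TEAD2. Single neighbours differed by more than 2-fold around other members too, with the highest log2 fold change at 2.23 near CTGF, 1.77 near AMOTL2 and 1.31 near TEAD4, and the lowest at -1.08 near WWTR1 and -1.06 near LATS2.

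**Figure D5:**
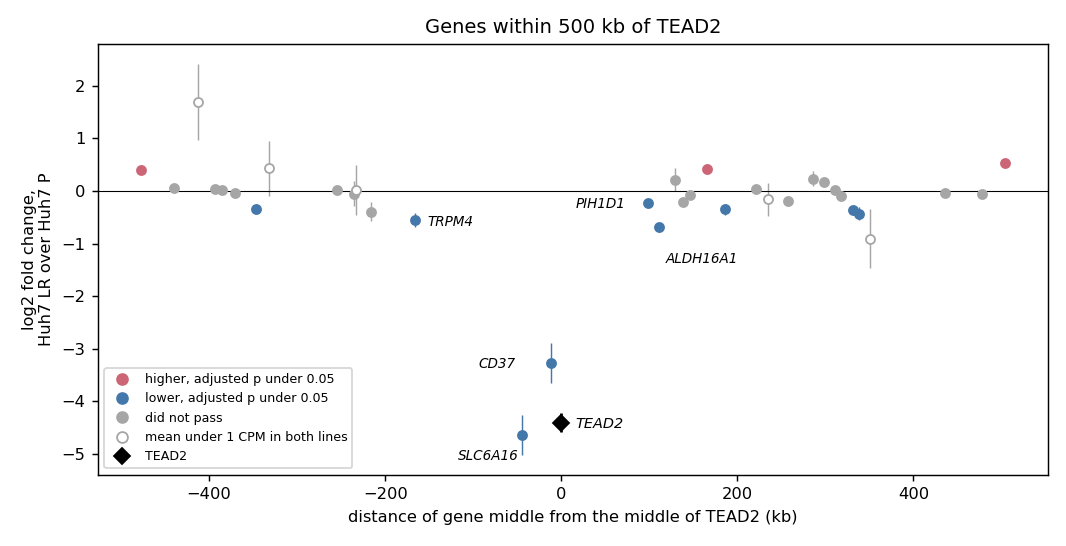
Log2 fold change of Huh7 LR over Huh7 P with its SE for the 35 tested genes within 500 kb of TEAD2, by the distance in kb from the middle of TEAD2 (black diamond) to the middle of each gene. SLC6A16 and CD37 fall to -4.65 and -3.27 beside TEAD2 at -4.41, while every other gene with a mean of at least 1 CPM in a line lies between -0.69 and 0.54.

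The profile of TEAD2 over the 6 libraries was compared with those of all other annotated genes tested, by the root mean square distance between mean-centred log2(CPM + 0.5) values. Among the 5 closest were GALNT5, an O-glycosylation enzyme (distance 0.0686), PARVB, a focal adhesion protein (0.297), OXCT1, an enzyme of ketone body use (0.331), and COL9A3, a collagen chain (0.406). GALNT5 was measured at 16.8, 14.9 and 15.4 CPM in Huh7 P and 1.04, 0.971 and 0.660 CPM in Huh7 LR, with a log2 fold change of -4.14. The levels of GALNT5 thus stood near those of TEAD2 in each library, on the CPM scale. The measure was chosen to find genes like TEAD2, and so carries no test. These 4 genes lie on chromosomes 2, 22, 5 and 20, none of them on the chromosome of TEAD2.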

How the data were processed

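Libraries of poly(A) RNA (NEBNext Ultra) were sequenced from 3 Huh7 P and 3 Huh7 LR samples. The deposited table gives the read count per gene without normalization and an FPKM value, which the authors scaled for transcript length and library size. The submitters' processing notes name TopHat2, Cufflinks, DESeq and the mouse build mm10, and the labels describe extraction from an insect, whereas the 19974 annotated identifiers are human and all are present in GENCODE release 29, 19910 with the same symbol. Coordinates and exon overlaps were taken from that release on GRCh38. The strand setting of the counting is not given in the sources used here.

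The counts were fitted with edgeR 4.0.16 under R 4.3.3 (filterByExpr with a minimum count of 10 and a minimum total of 15, TMM factors of 0.977 to 1.03, glmQLFit and glmQLFTest, Benjamini-Hochberg adjustment over 17531 features). The biological coefficient of variation was 12.7%. Calls were made at an adjusted p under 0.05. Each SE, those of the members included, is the absolute log2 fold change divided by the square root of the quasi-likelihood F statistic. It was thus derived from that statistic and not estimated separately. Unannotated loci, with 2.86% to 3.35% of the counts, stayed in the fit, and 34 lines of annotation text were left out. The fit was tested on simulated data. No 2 libraries were the same within sampling noise.

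The members, gene lists and alternatives were chosen with earlier results of these data known. Members, a set of core genes, the 3 largest rises and falls of each list with at least 1 CPM in a line, the nearest and the most changed TEAD2 neighbours and the 5 genes most like TEAD2 were named by rule. AJUBA, WWC3, STK38L, GADD45A, CRIM1 and the other list genes, neighbours and markers outside the rule were named after their values were seen. Alternatives were the Wald test of DESeq2 1.42.0 and its size factors in edgeR, a fit without the filter, one with 10 or more counts required in each library, the replicate number as a block, limma 3.58.1 with a trend on FPKM (log2 with pseudocounts of 0.1 or 1, features of 0.5 FPKM or more in 3 libraries), a stricter call rule, and each library left out in turn. For the summed TEAD level they were CPM per kilobase of exon and FPKM rescaled to the same total in every library. Promoters were taken from RefSeq and searched on both strands. A comparison of the TEAD proteins was not made, and some genes of the lists and rules are not reported here. Figures were drawn with matplotlib 3.10.9.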

Additional observations from a re-analysis of the deposited data

How the results depend on the processing

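The summary results and the log2 fold changes of the members were recomputed 222 times in all, of which 212 kept their direction with counts within 1.5 times the reported count or fold changes within 1 SD of the replicates, and none reversed. Within those bounds, TEAD1 moved from 0.22 to 0.36 on log2(FPKM + 0.1), the log2 ratio of the summed TEAD level from -0.17 to -0.093 without Huh7 P replicate 1, and the other Hippo genes higher from 11 to 15 without Huh7 LR replicate 1. At an adjusted p under 0.001 with more than 2-fold change, the counts fell from 11 to 2 higher and from 12 to 0 lower among the other Hippo genes, from 9 to 3 higher and from 3 to 0 lower among the YAP/TAZ targets, and from 3 to 0 higher and from 9 to 2 lower among the TEAD2 neighbours. The rule itself sets these lower counts. With each library left out in turn, the other Hippo genes lower ranged from 5 to 12, with 7 without Huh7 P replicate 1 and 5 without Huh7 P replicate 2, where fewer samples were fitted. The log2 fold change of TEAD2 was -4.01 on log2(FPKM + 0.1) and -2.42 on log2(FPKM + 1), where the pseudocount is large beside the resistant level, and between -4.57 and -4.21 with a library left out. On log2(FPKM + 1) other low genes also moved toward 0 and kept their calls: SLC6A16 to -0.87 (-2.95 on log2(FPKM + 0.1)), CD37 to -0.86, ANKRD1 to 1.03, NUAK2 to 1.34, FAT4 to 0.45, DCHS1 to -0.49 and GALNT5 to -1.56. Among single genes that did not pass, NF2 turned to -0.088 without Huh7 P replicate 3 and -0.0017 without Huh7 LR replicate 1 (range with a library left out -0.088 to 0.15), VGLL4 to 0.0061 (-0.11 to 0.0061) and AXL to 0.051 (-0.41 to 0.051) without Huh7 LR replicate 1, and the cause was not tested. SAV1, MOB1A, PIH1D1 and ASAP1 lost their calls with single libraries left out, as given beside them, and ASAP1 also in both FPKM fits (limma adjusted p = 0.0732 and 0.0753).

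Whether the replicate numbers pair the samples could not be settled. The deviations of same-numbered samples correlated at only 0.06, 0.07 and 0.03, although each sample correlated best with its own number. With the replicate block, 4089 features were higher and 4033 lower, against 4093 and 3923, and the log2 fold change of TEAD2 was -4.42. The block moved the TEAD2 neighbours to 4 higher and 11 lower. Depth limits AMOT, VGLL2, VGLL3, FOXF2, RBMS3 and DKKL1, which were too low to be tested, and differences at AXL and WWC3.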
